A study of Mus musculus with 7 samples.

Results

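Complement is a cascade of proteins that tags cells and debris for removal by phagocytes. In its classical branch C1q binds a surface and leads to cleavage of C3, the alternative branch is stabilised on surfaces by properdin, and the released fragments C3a and C5a act on receptors of myeloid cells. In the brain, microglia are a main source of C1q and carry the complement receptor 3, through which tagged material is engulfed. The genes described here are 8 of the 23358 gene rows in the authors' deposited table: C1qa, C1qb and C1qc (the chains of C1q), C3 (the central component), Cfp (properdin), C3ar1 and C5ar1 (the receptors of C3a and C5a) and Itgam (CD11b, the α chain of complement receptor 3). They were taken by gene symbol, and each of the 8 matched 1 row.

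The study asked how brain endothelial cells of the mouse embryo change without Tgfbr2, a receptor subunit for transforming growth factor β. RNA abundance was read by sequencing poly(A) RNA from cells of E14.5 brains on the strain label C57Bl6, with 2000 to 5000 cells per library and single-end reads of 50 bases. The control group had 3 libraries, with a genotype label of controls and no further allele given, and the other group had 4 libraries of cells labelled as lacking Tgfbr2, and is called the Tgfbr2-deficient group after that label. The Ai14 allele, which makes the red protein TdTomato in cells where Cre recombinase has acted, was used to sort the cells by fluorescence. The sources used here name neither the Cre driver, nor the Cre status of the controls, nor the deleted part of Tgfbr2. The cells in which recombination was directed are therefore not known here. Whether the libraries within a group are from different embryos is not in the labels. The p-values therefore rest on how far these particular libraries vary, and that variation may be technical. The authors' table gives 1 value in FPKM for each gene in each group (reads scaled to transcript length and library size, so that levels can be compared between genes). No value per library was analysed here, so no spread between libraries and no depth can be given, and the authors' q-value (their p-value adjusted over the genes they tested) is the only error measure. Tgfbr2 itself was at 91.1 FPKM for controls and 65.4 FPKM for the cells labelled as lacking it. With q = 0.0953 in the authors' deposited table it did not pass, and a gene-level value can include exons left after recombination, so it is a weak check of the labels.

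For 7 of the 8 genes a RefSeq table (GRCm38.p6) gave the sequence upstream of the transcription start, and C1qa was not matched. The windows below were picked by their matches. They are those of the 3 genes that held GAGGAA, and that of C3 for its TTNNGNAA matches. No window is printed for C3ar1, C5ar1 or Cfp, none of which held GAGGAA. Cfp held no match to any motif searched. Any link between these letters and the folds was not tested. Each window reads 5′ to 3′ on the strand of the gene. In the first 3 sequences capitals mark GAGGAA or its reverse complement TTCCTC, the core bound by the myeloid factor PU.1. In the C3 sequence they mark TTNNGNAA on either strand, a loose form of the C/EBP site.
C1qb: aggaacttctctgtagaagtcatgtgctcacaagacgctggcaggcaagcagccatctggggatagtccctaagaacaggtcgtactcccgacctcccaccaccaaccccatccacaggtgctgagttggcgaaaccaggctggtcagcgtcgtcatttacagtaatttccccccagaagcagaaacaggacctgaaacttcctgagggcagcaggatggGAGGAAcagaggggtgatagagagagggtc
C1qc: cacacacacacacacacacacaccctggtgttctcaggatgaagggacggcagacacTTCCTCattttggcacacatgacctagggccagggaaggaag
Itgam: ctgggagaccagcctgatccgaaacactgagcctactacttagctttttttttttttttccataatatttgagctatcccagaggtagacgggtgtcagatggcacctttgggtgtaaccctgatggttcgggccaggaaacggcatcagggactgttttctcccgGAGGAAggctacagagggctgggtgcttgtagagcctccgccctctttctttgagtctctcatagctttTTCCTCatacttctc
C3: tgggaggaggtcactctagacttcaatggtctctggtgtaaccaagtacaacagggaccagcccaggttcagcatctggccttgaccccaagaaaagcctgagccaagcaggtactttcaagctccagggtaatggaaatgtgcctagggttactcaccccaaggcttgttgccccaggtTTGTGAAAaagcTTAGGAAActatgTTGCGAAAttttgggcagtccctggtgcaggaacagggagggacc
The C1qb window is chr4:136886201-136886450 (minus strand), the C1qc window chr4:136893066-136893164 (minus strand), the Itgam window chr7:128062390-128062639 (plus strand) and the C3 window chr17:57228137-57228386 (minus strand). The C1qc window stops 151 bases short of the RefSeq start, where GENCODE M21 already annotates transcript. Over the full 250 bases upstream, GAGGAA was found on either strand in 3 of the 7 genes (C1qb, C1qc and Itgam) and in 23.3% of all 32851 promoters in the table. The Itgam window held 2 matches, 84 and 15 bases before the start. The C1qb window held 1, 30 bases before it. TTNNGNAA was found in 4 of the 7 (C1qc, C3, C5ar1 and Itgam) and in 36.8% of all promoters. In C3 its 4 matches fell at 3 places, since TTGCGAAA matches on both strands. Of the other motifs searched on both strands, TGTGGT (RUNX) was in 2 of 7 and 14.0% of all, TGACTCA (AP-1) in 1 and 4.46%, the TATA box letters TATAAA in 1 and 12.4%, and GTCTAGAC (a SMAD palindrome) in 0 and 0.167%. A TTNNGNAA match can overlap other motifs, and a match of letters is a description, not a site.

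All 8 genes were lower in the Tgfbr2-deficient group at q under 0.05 in the authors' deposited table, by 1.73 to 2.25 fold, although 7 of the 8 lay above the median fold of the macrophage markers when folds were set relative to those markers. Most tested genes lay above that median too: only 1.53% had a lower fold than C1qc, which was 0.0015 above it. C1qa, C3ar1 and C5ar1 were 0.0438 to 0.0495 above it on the log2 scale. The 3 C1q chains, among the most abundant transcripts of the sorted cells, fell from a sum of 5528 to 2565 FPKM. The receptors C3ar1 and C5ar1 fell by nearly the same fold, and Cfp, Itgam and C3 fell by less than 2 fold. Across the 13356 genes that the authors tested and that reached 1 FPKM in at least 1 group, 14.7% were lower and 23.9% were higher at the same threshold. Among 928 tested genes whose control level was 100 FPKM or above, a level chosen after the values were seen, 47.1% were lower and 2.37% higher, and 6 of the 8 genes stood at that level. At q under 0.01 each of the 8 was still lower, as were 7.68% of all tested genes. On the FPKM values with no pseudocount, a fall of 2 fold or more at q under 0.05 was reached by 5 of the 8 genes and by 2.76% of all tested genes. The median log2 fold of the 8 genes on FPKM + 1 was −1.03, against −0.08 for all tested genes and −1.08 for 20 macrophage markers. Centred on ribosomal protein genes, the median of the 8 was −0.49 and their folds ran from −0.63 (C1qb) to −0.27 (C3) and −0.24 (Cfp). In a bulk sample, fewer cells of a type and less RNA per cell cannot be told apart.

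Markers of macrophages mostly fell with these genes, while those of most other cell types mostly rose. The part of these markers in the result was not tested. Of the 20 macrophage markers, led by Pf4 and Fcer1g, 17 fell and 0 rose. Summed over the list, they reached 10019.9 FPKM among controls and 4434 FPKM in the group labelled as lacking Tgfbr2. Of 15 endothelial markers, led by Cldn5 and Egfl7, 14 rose and 0 fell, and their sum went from 86.5 to 445 FPKM. The sum for macrophages was therefore above that for endothelium in both groups, although the cells are labelled endothelial. The defining endothelial genes Cdh5 (VE-cadherin) and Pecam1 were low in the control group, at 2.75 and 4.81 FPKM. Mural markers, led by Myl9 and Pdgfrb, rose in 8 of 10 (sum 18.0 to 114 FPKM) and fibroblast markers, led by Col1a1 and Col3a1, in 10 of 10 (135 to 1118 FPKM). Erythroid markers, led by Alas2 and Hbb-bh1, rose in 6 of 7 and fell in 1, Epor (403 to 2374 FPKM). Markers of mast cells, megakaryocytes and neutrophils, led by Cpa3 and Cma1, rose in 9 of 12 tested (18.9 to 479 FPKM), and neural markers, led by Tubb3 and Fabp7, in 12 of 12 (147 to 367 FPKM). Among the neutrophil genes, Mpo and S100a9 rose, Elane, S100a8 and Ngp did not pass, and Ltf was not tested. Hepatocytes make most plasma complement. Of 7 of their markers, 5 were not tested by the authors, and Alb stood at 0.0212 and 0.0519 FPKM. The remaining pair is not particular to liver: Trf fell from 398 to 243 FPKM and Ttr rose from 20.3 to 105 FPKM. In no list other than that of hepatocytes was a marker listed at 0.

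**Figure D1:**
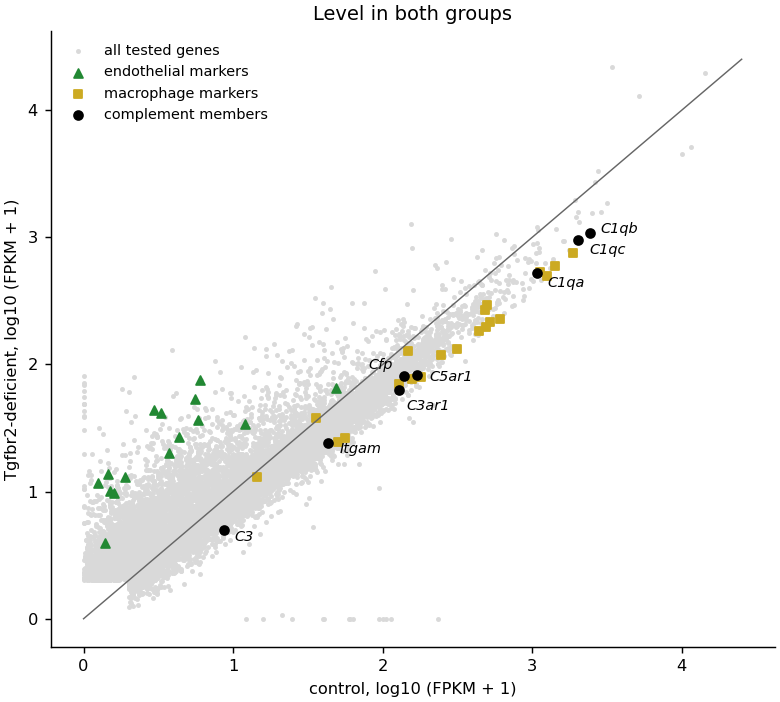
Level of each tested gene in the control group (horizontal) and in the Tgfbr2-deficient group (vertical), both as log10 of FPKM + 1 from the authors' 1 value per group, with the line of equal level. The 8 complement genes lie below the line among most macrophage markers, while the 15 endothelial markers lie above it, and 7 of the 8 would change side if folds were centred on the macrophage markers. Among all genes called at q under 0.05, 170 would then be lower and 4991 higher.

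C1q is built from 3 different chains, A, B and C, each needed for the assembled protein. C1qb was at 2432 FPKM for controls and at 1083 FPKM for the deficient group. Its log2 fold in the authors' deposited table was −1.17, with q = 0.0065. C1qc stood at 2026 and 959 FPKM, and its log2 fold in the authors' deposited table was −1.08, with q = 0.00392. C1qa stood at 1070.2 and 523 FPKM, and its log2 fold in the authors' deposited table was −1.03, with q = 0.00206. All 3 chains were thus about 2 fold lower, and each passed the test. By level among the 13356 tested genes, C1qb ranked 11 in the control group and 19 in the Tgfbr2-deficient group, C1qc 13 and 22, and C1qa 35 and 64. The ratio of levels between chains was similar in both groups. C1qb stood at 2.27 times the level of C1qa in the control group and 2.07 times in the Tgfbr2-deficient group, and C1qc at 1.89 and 1.83 times. No test of these ratios was possible. Together the 3 chains made up 91.9% of the summed FPKM of the 8 genes in the control group and 91.1% in the Tgfbr2-deficient group.

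The 3 chains are encoded side by side on the minus strand of mouse chromosome 4 (mm10), in the order C1qb, C1qc, C1qa by rising coordinate. In the authors' table C1qb spans chr4:136880145-136886177, C1qc chr4:136889802-136892914 and C1qa chr4:136895916-136898844. The gaps are 3624 bases between C1qb and C1qc and 3001 bases between C1qc and C1qa, so that all 3 lie within 18700 bases. GENCODE M21 annotates them as the protein-coding genes ENSMUSG00000036905.8, ENSMUSG00000036896.5 and ENSMUSG00000036887.5, with no overlapping gene on either strand. The nearest gene on each side did not fall, at a level far below those of the C1q genes. Ephb2, an ephrin receptor 44209 bases from C1qb, rose from 2.76 to 8.86 FPKM, with q = 0.00029 in the authors' deposited table. Epha8, another ephrin receptor 30574 bases from C1qa, rose from 0.685 to 2.33 FPKM, with q = 0.00029 in the authors' deposited table. Next outward, Zbtb40 stood at 2.24 and 1.99 FPKM, with q = 0.627 in the authors' deposited table, and Lactbl1 was not tested, at 0.0755 and 0 FPKM. The C1q genes, from 523 to 2432 FPKM, thus lay between neighbours that reached 8.86 FPKM at most.

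**Figure D2:**
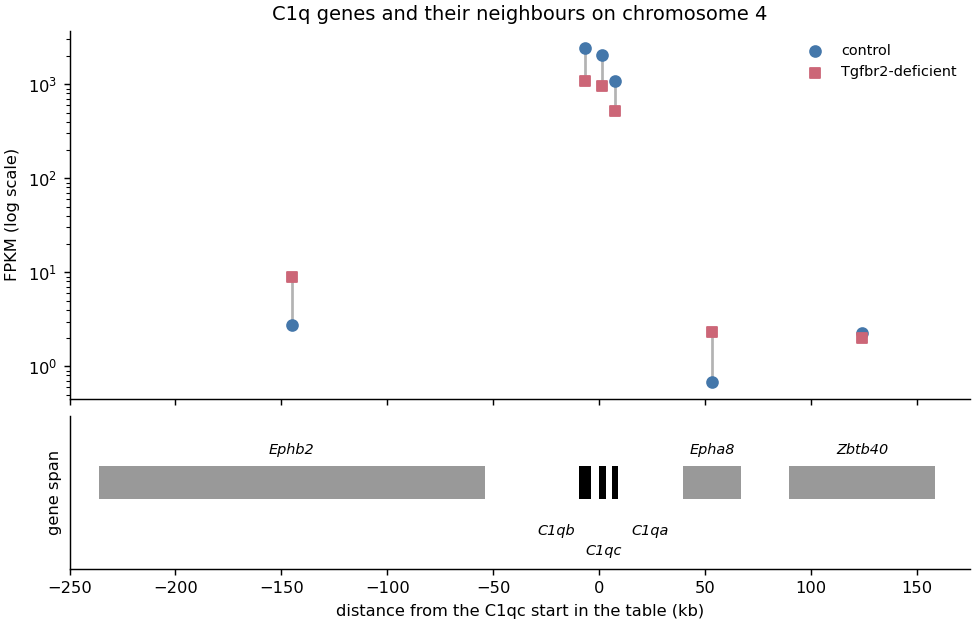
Upper panel, level in FPKM (log scale) of the 3 C1q genes and the tested neighbours in the control group (circles) and the Tgfbr2-deficient group (squares), each 1 value per group, at the middle of the gene. Lower panel, gene spans by distance in kb from the C1qc start. The 3 C1q genes are lower in the Tgfbr2-deficient group, while Ephb2 and Epha8 are higher. C1qa and C1qc, but not C1qb, turn to higher by under 0.1 on the log2 scale when folds are centred on macrophage markers.

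The genes nearest to the midpoint of the 3 chains on the log2(FPKM + 1) scale, over the 2 group values, were Sepp1, Pf4, Itm2b, Ctsb and Grn. Sepp1, which encodes selenoprotein P, was the nearest, at 1747 and 799 FPKM, and fell with q = 0.0329 in the authors' deposited table. Pf4, a chemokine of platelets and macrophages, fell from 1877 to 747 FPKM, with q = 0.00029 in the authors' deposited table. Grn, the lysosomal protein progranulin, fell from 1371 to 676 FPKM, with q = 0.0183 in the authors' deposited table. Itm2b, a membrane protein, stood at 1623 and 935 FPKM and Ctsb, the protease cathepsin B, at 1612 and 932 FPKM. Their q-values in the authors' deposited table, 0.0922 and 0.295, did not pass. A likeness over 2 values is a likeness in level and fold only. Both group values entered the choice, so a fall near that of the chains was set by it.

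C3, on which all branches converge, was the least abundant of the 8 genes. Its level was 7.65 FPKM for controls and 3.94 FPKM for the deficient group. Its log2 fold in the authors' deposited table was −0.96, with q = 0.00029. It ranked 7257 and 9998 by level among the tested genes, and C1qb stood at 318 times its level in the control group and 275 times in the Tgfbr2-deficient group. Cfp, which stabilises the alternative C3 convertase, stood at 139 and 80.2 FPKM. Its log2 fold in the authors' deposited table was −0.79, with q = 0.00029, the smallest change of the 8 genes. C3 lies at chr17:57203973-57228136 (minus strand, ENSMUSG00000024164.15) and Cfp at chrX:20925535-20931524 (minus strand, ENSMUSG00000001128.7).

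C3ar1, the G protein-coupled receptor of C3a, stood at 128 and 62.2 FPKM. Its log2 fold in the authors' deposited table was −1.05, with q = 0.00029. C5ar1, the receptor of the chemoattractant C5a, stood at 167 and 81.0 FPKM. Its log2 fold in the authors' deposited table was −1.05, with q = 0.000787. The level of C5ar1 was 1.30 times that of C3ar1 in both groups, a likeness of single group values that could not be tested. C3ar1 stood at 16.8 times the level of C3 in the control group and 15.8 times in the Tgfbr2-deficient group. Hc, the mouse gene for C5, was listed at 0 FPKM for controls, at 0.0191 FPKM for the deficient group, and was not tested, so the receptor transcript was abundant where that of the precursor of its ligand was near or at 0. Itgam stood at 42.3 and 23.3 FPKM, and its log2 fold in the authors' deposited table was −0.86, with q = 0.00029. C3ar1 lies at chr6:122847140-122856157 (minus strand, ENSMUSG00000040552.8), C5ar1 at chr7:16246743-16259540 (minus strand, ENSMUSG00000049130.6) and Itgam at chr7:128062640-128118491 (plus strand, ENSMUSG00000030786.18). GENCODE M21 also annotates Gm49368 over Itgam on the same strand and Mir6978 within C3, so reads there cannot be assigned to 1 gene alone.

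**Figure D3:**
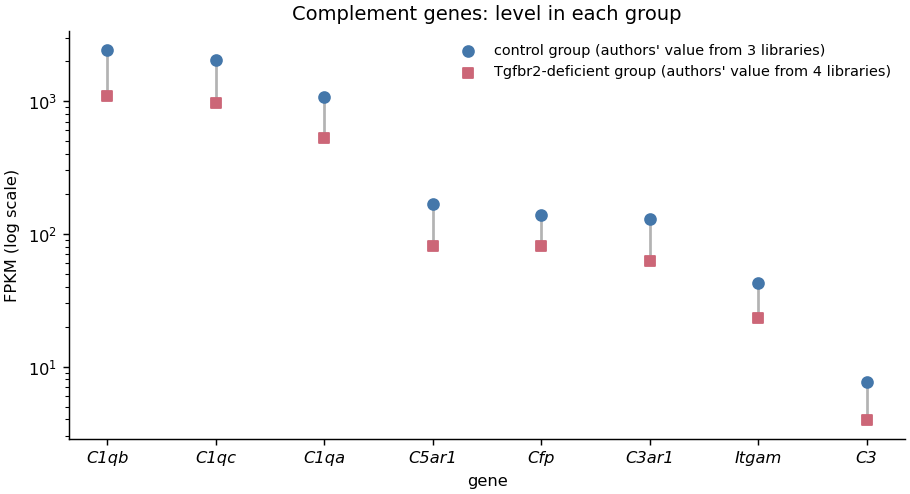
Level in FPKM (log scale) of the 8 complement genes in the control group (circles) and the Tgfbr2-deficient group (squares), each the authors' 1 value per group, ordered by the control level. The order of the 8 genes is the same in both groups, from C1qb at 2432 and 1083 FPKM to C3 at 7.65 and 3.94 FPKM, and each is lower in the Tgfbr2-deficient group, a direction that 7 of the 8 lose when folds are centred on macrophage markers. Most called genes of the series lose it too: 1966 were lower before that centring and 170 after it.

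The order of the 8 genes by level was the same in both groups. Without values per library it cannot be said which neighbours in it differ beyond their spread, and in the deficient group C5ar1 and Cfp were at 81.0 and 80.2 FPKM. The size of the fold and the q-value did not run together. C1qb had the largest fold and the largest q of the 8, while C3, C3ar1, Itgam and Cfp had the smallest p in the authors' deposited table, 5e-05, a floor that they shared with 2425 of its 14043 tested genes in all.

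The rest of the complement system was read from a list of 56 other genes by role, of which 54 had a row. The authors did not test 28 of these, and 10 were listed at 0 FPKM in both groups. Of the 26 tested, 5 were lower, 11 were higher and 10 did not pass, against 14.7% lower and 23.9% higher among all tested genes. Their median log2 fold on FPKM + 1 was −0.16. The list thus did not share the direction of the 8 genes, and its roles differed in their counts.

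Genes that start the cascade were few and mostly low. Cfb, the protease of the alternative convertase, fell from 31.3 to 18.3 FPKM, with q = 0.0032 in the authors' deposited table. C1rl, related to the C1r protease, fell from 3.06 to 1.71 FPKM, with q = 0.0307 in the authors' deposited table. C2, the protease of the classical convertase, stood at 25.7 and 18.1 FPKM, with q = 0.054 in the authors' deposited table, and did not pass. Of the lectin branch, Colec12, a collectin that is also a scavenger receptor, fell from 138 to 89.3 FPKM, with q = 0.0263 in the authors' deposited table. Masp1, a protease of that branch, rose from 0.741 to 2.76 FPKM, with q = 0.00029 in the authors' deposited table, and the ficolin Fcnb from 0.437 to 1.41 FPKM, with q = 0.0226 in the same table. Fcna, another ficolin, stood at 136 and 108 FPKM, with q = 0.224 in the authors' deposited table. Over the classical, lectin and alternative routes, 3 of 8 tested genes fell and 2 rose, beside 14.7% lower and 23.9% higher among all tested genes, so the higher share was near that background. C1s, the protease that cleaves C4 and C2, was not tested at 0.0213 and 0.331 FPKM, and C4b not at 0.503 and 0.448 FPKM. C4a and C4b are near-identical copies, so their values are uncertain. Of the 7 genes of the terminal pathway, which forms the membrane pore, C8g alone was tested, at 3.13 and 2.94 FPKM, with q = 0.976 in the authors' deposited table. C6 was next by level, at 0.198 and 0.281 FPKM, and 4 of the 7 were listed at 0 FPKM in both groups.

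Regulators, which limit complement on host surfaces and in fluid, were mostly higher where tested: of the 9 tested and reported here, 7 rose and 2 did not pass, beside 23.9% higher and 14.7% lower among all tested genes. A further 11 had a row and were not tested by the authors. The 7 that rose were at 0.377 to 7.47 FPKM for controls, and no share among genes of like level was computed. Clu (clusterin, an inhibitor of the pore) rose from 4.76 to 43.5 FPKM, Vtn (vitronectin, likewise) from 3.90 to 27.2 FPKM and Serping1 (the C1 inhibitor) from 1.69 to 11.4 FPKM. Each had q = 0.00029 in the authors' deposited table. On the membrane, Cd59a, which blocks the pore, rose from 7.47 to 35.4 FPKM, Cd55, which speeds decay of convertases, from 0.377 to 2.87 FPKM, and Susd4 from 1.68 to 5.60 FPKM. Each also had q = 0.00029 in the authors' deposited table. Cd59b, a gene related to Cd59a, rose from 0.46 to 1.95 FPKM, with q = 0.0186 in the authors' deposited table. Whether reads were shared between Cd59a and Cd59b was not tested, so the value of Cd59b is uncertain. Cr1l, the rodent membrane inhibitor Crry, stood at 31.3 and 22.6 FPKM, with q = 0.0797 in the authors' deposited table, and Thbd (thrombomodulin) at 7.93 and 10.7 FPKM, with q = 0.141. The endothelial, fibroblast and mural marker sums rose beside these regulators, and their part was not tested.

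Among other receptors and binding proteins, 2 of 8 tested fell, 2 rose and 4 did not pass, beside 14.7% lower and 23.9% higher among all tested genes, so no result about these receptors as a set follows. C5ar2, the second receptor of C5a, fell from 2.99 to 1.47 FPKM, with q = 0.0176 in the authors' deposited table, and C5ar1 stood at 56.0 and 55.2 times its level. C1qbp, a mitochondrial protein that can bind C1q, fell from 114 to 75.4 FPKM, with q = 0.0263 in the authors' deposited table. Cd93, a lectin of endothelium and myeloid cells once described as a C1q receptor, rose from 3.46 to 16.0 FPKM, with q = 0.00029 in the authors' deposited table. Integrin chains did not move as 1 group. Itgb2, the β chain with which CD11b pairs, stood at 59.5 and 49.0 FPKM, with q = 0.29 in the authors' deposited table. Itgax (CD11c), the α chain of complement receptor 4, rose from 0.332 to 2.30 FPKM, with q = 0.00029 in the authors' deposited table, while Itgam fell. The level of Itgb2 was 1.41 times that of Itgam in the control group and 2.10 times in the Tgfbr2-deficient group, and Itgam stood at 127 and 10.1 times Itgax, differences that were not tested. Vsig4, a macrophage receptor of C3b, stood at 1.64 and 0.843 FPKM, with q = 0.0834 in the authors' deposited table. Strand is not marked by these kits, and antisense genes are annotated over Cd55, C1rl and Fcna, Rtp4 over Masp1, Fbxw5 over C8g, several small genes and pseudogenes over Colec12, and Gm20547 over both Cfb and C2, so reads there cannot be told apart.

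**Figure D4:**
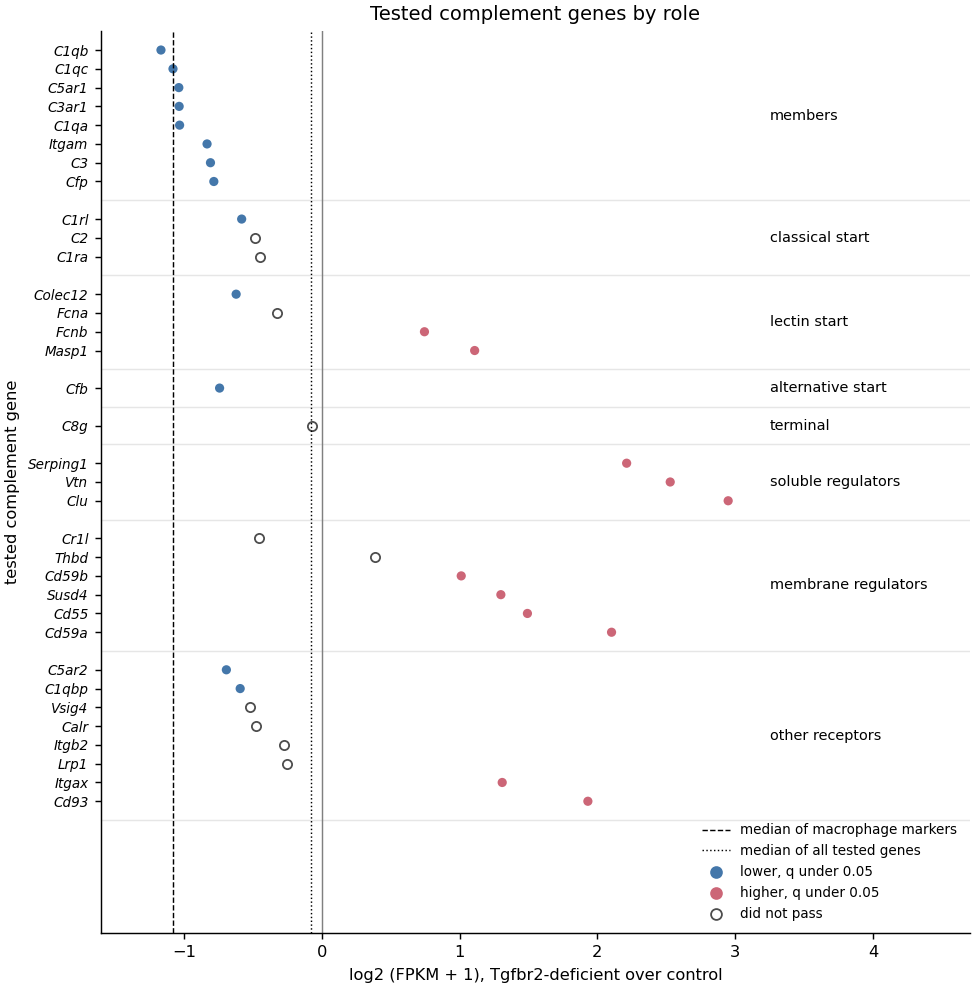
Log2 fold on FPKM + 1 (Tgfbr2-deficient over control) of the tested complement genes by role, 1 point per gene from 1 value per group, filled where q was under 0.05 in the authors' table. The 8 genes at the top lie between −1.17 and −0.78, near the median of the macrophage markers (dashed, −1.08), while 7 of the 9 regulators shown are points called higher, to the right of 0. Relative to the dashed line 7 of the 8 genes and every other complement gene shown lie to the right.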

How the data were processed

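Total RNA of sorted cells was copied with the SMART-Seq v4 kit and tagmented with Nextera XT, per the labels' protocols. The submitters' processing notes name TopHat2, Cufflinks 2.2.1, Cuffdiff and mm10, but no annotation or options. What the authors deposited is 1 table of FPKM per group, already combined over libraries, with 0 columns per library, so depth is unknown. Its deposited log2 fold equals that of the FPKM values with no pseudocount (largest difference 3.6e-05). The deposited test statistic, a score, was not used. Each p-value and q-value was copied as deposited from the Cuffdiff run.

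Starts, which count from 0 in the table, were raised by 1. Genes with test status OK and 1 FPKM or more in a group were called at q under 0.05. Folds over lists are log2 of (FPKM + 1). Of 158 list symbols, 156 matched, 2 by synonym. A regulator on the list as first written is not reported here, in values or counts. The code for calls and motif searches was run on simulated data, with Python 3.11.15 and pandas 2.3.3. That checks the code alone, not the authors' p-values or the spread between libraries. The genes, lists and tests were chosen with earlier results of these data known. The genes named were the 8, Tgfbr2, the 5 nearest in level to the C1q midpoint, 2 neighbours on each side of C1q, per role up to 4 past the threshold or else the 2 most abundant, and the 2 highest of each marker list. C2, C1s, C4b, Fcna, Hc, Cr1l, Thbd, Itgb2, Vsig4, Cdh5, Pecam1, Epor, Alb, Mpo, S100a9, Elane, S100a8, Ngp and Ltf were added after their values were seen. Alternatives were other filters, thresholds, pseudocount and centring.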

Additional observations from a re-analysis of the deposited data

How the results depend on the processing

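Each gene of the 8 stayed lower past the threshold at a minimum of 5 FPKM or with no minimum, at q under 0.01, with q-values recomputed over the filtered genes and without the rows of several symbols. C3, the lowest of the 8, was at 7.65 FPKM for controls, so a changed minimum could not alter their calls. Their rows each held a single symbol, so leaving out the other rows could not alter them. The stricter threshold reads the same deposited q-values, of which the largest among the 8 was 0.0065. The recomputed q-values rest on the same deposited p-values. Neither is therefore a new test of the calls. A pseudocount of 0.1 FPKM and centring change the fold and leave the deposited q-values as they are, so they show the sign and size only. The 8 kept a negative fold with that pseudocount and with folds centred on all tested genes or on ribosomal protein genes, which raises each log2 fold by 0.54 and brings the median of the 8 to −0.49. With a log2 fold of at least 1 on FPKM + 1 asked for in addition, 5 of the 8 stayed lower, and C3, Itgam and Cfp dropped out. Of the 26 other complement genes tested, 0 were then lower. Of all 13356 tested genes, 255 were lower and 1887 higher. Centring on macrophage markers adds 1.08, and these too are counts of sign among called genes: 1 of the 8 lower and 7 higher, 0 and 16 of the 26 other complement genes tested, and 170 and 4991 of all 13356 tested genes. The median of the 8 became 0.0478, with C1qa at 0.0495, C1qc at 0.0015, C3 at 0.27, C3ar1 at 0.0462, C5ar1 at 0.0438, Itgam at 0.25 and Cfp at 0.30. At 5 FPKM, 6 of the other complement genes and 1643 of all genes were higher, and 3 of the former lower. How many genes were tested at that minimum is not given here, so these counts give no share. At q under 0.01, 1 of the 26 other complement genes tested and 1026 of all tested genes (7.68%) were lower. No paired analysis was possible because the table holds 1 value per group and no value per library, and leaving out single libraries was not run for the same reason. Depth per library is unknown, so what it limits could not be said.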
